A study of Mus musculus with 20 samples.

Results

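The clustered protocadherins are the 59 genes of the deposited count table, out of 24419, whose symbols begin with Pcdha, Pcdhb or Pcdhg. They form the alpha cluster (15 rows), the beta cluster (22 rows) and the gamma cluster (22 rows). The members were taken by symbol alone, but this choice was made with earlier results of these data known. All lie on the plus strand of mouse chromosome 18 in build mm10. The alpha genes span 36930285 to 37187660, the beta genes 37264998 to 37521419 and the gamma genes 37661945 to 37841872, while Pcdha7-g is annotated from the alpha cluster to the end of gamma.

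Clustered protocadherins are cell surface adhesion proteins of neurons. Each alpha and gamma isoform begins with its own promoter and large variable exon, which is spliced to constant exons shared by its cluster. Each beta gene is a lone exon with no shared constant part. A neuron is known to express a small random subset of the alternate isoforms, chosen by promoter methylation and by loops that CTCF and cohesin form between promoters and enhancers. The C-type isoforms at the end of the alpha and gamma clusters are instead expressed more uniformly. The proteins bind only matching partners on the opposing membrane, and this recognition serves self-avoidance of dendrites and axons and neuronal survival.

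The RNA came from dissociated hippocampal cultures of C57BL6 mice at embryonic day 18, with tissue from 4 embryos pooled, grown for 10 days and exposed between days 3 and 6 to 4 µM cytosine arabinoside, which is toxic to cells that divide. All groups were washed in imaging medium, stimulated for 2 min and lysed 90 min later. Control cultures received medium alone, and the glutamate group received 50 µM glutamate. The zinc group received 50 µM glutamate with 10 µM ZnCl2. The TPA group received 10 µM tris(2-pyridylmethyl)amine, which binds zinc ions tightly, for 1 min before and then together with 50 µM glutamate. No group received zinc or TPA without glutamate. Each group had 5 libraries that the labels call biological replicates, but since the tissue was pooled, p-values measure the spread between these samples.

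Library totals ran from 28692470 to 40934630 counts. The members together held 27550 to 38544 counts per library. Summed neuronal markers lay between 6058 and 7242 CPM (counts relative to the TMM-scaled library size), astrocyte markers between 745 and 959, oligodendrocyte lineage markers between 23.7 and 30.8 and microglial markers between 2.38 and 3.85. The neuronal markers were thus high. The astrocyte sum was mostly Slc1a2, a glutamate transporter gene that hippocampal neurons also transcribe, at a mean of 650.0 CPM. Slc1a3 had 98.9, Gfap 43.8 and Aldoc 37.7, while Aldh1l1, Aqp4 and Sox9 had 8.46, 6.96 and 6.90. In bulk RNA, fewer cells that use an isoform and less of it per cell cannot be told apart.

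What a count means differs between the clusters. In the deposited annotation the beta genes have no base in common with another gene. Apart from Pcdha7-g, the alpha genes share constant exons of 59, 89 and 2712 bases, and the gamma genes share constant exons of 59, 89 and 1968 bases. A median of 45.4% of an alpha gene's bases and 54.2% of a gamma gene's bases belong to that gene alone. Pcdha4, Pcdha6 and Pcdha7 have 0 bases of their own, because their variable exons lie within those of Gm37013, Gm38666 and Pcdha7-g, which are joined in the annotation to the gamma constant exons. All 3 genes had 0 counts in all 20 libraries. A count of 0 allows up to 3 counts (0.105 CPM in the smallest library) for counting error, but reads of these exons may not have been assignable, so no level is read from the 0. Pcdha7-g kept 122 bases of its own and held 16 to 38 counts. The level of a member is therefore given as CPM per kb of unshared exon, for the 55 members with at least 1000 such bases.

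Levels ran more widely within the alpha cluster than within the others. The alpha members ran from 0.148 to 38.2 CPM per kb (median 5.00, 11 members), the beta members from 0.178 to 7.68 (median 2.23, 22 members) and the gamma members from 0.409 to 30.4 (median 7.28, 22 members). The highest member exceeded the lowest 257-fold in alpha, 43.3-fold in beta and 74.5-fold in gamma. In each cluster the bottom of this range was set by a single member far below the rest.

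The C-type members were 3 of the 5 highest. Pcdhac2, which is known for the tiling of serotonergic axons, stood first with 38.2 ± 3.16 CPM per kb (SD over 20 libraries). Pcdhgc3, whose protein binds the Wnt pathway scaffold Axin1, followed with 30.4 ± 1.96, and Pcdhac2 was above it in 19 of 20 libraries. Pcdhgc4, the isoform tied to neuronal survival, came next with 21.9 ± 1.37, and lay below Pcdhgc3 in all 20 libraries. The alternate member Pcdhga11 had 21.8 ± 1.65, and Pcdhgc4 was above it in only 12 of 20 libraries, so these neighbours did not differ beyond their spread. Pcdhga3 was the fifth with 18.5 ± 1.26, and the sixth, Pcdhga8, had 9.76 ± 0.550. The other C-type members were no higher than the alternate ones. Pcdhgc5 had 7.14 ± 0.637, close to the gamma alternate median of 7.08, and Pcdhac1 had 2.09 ± 0.302 against an alpha alternate median of 5.00. Pcdhac2 was 18.3-fold above Pcdhac1 although both are alpha C-types.

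**Figure D1:**
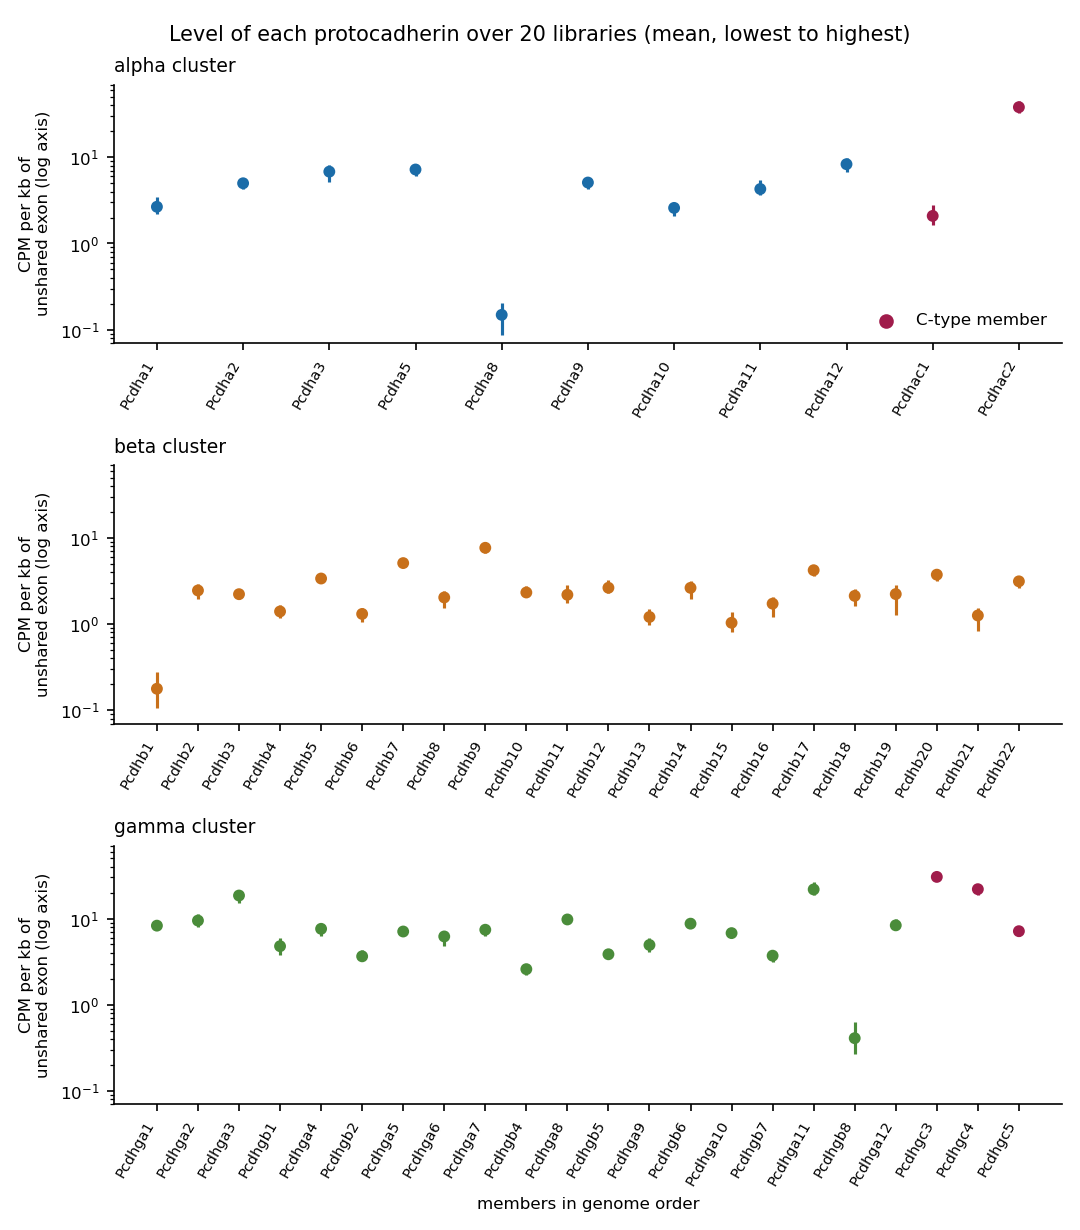
Level of the 55 members with at least 1000 unshared bases, in CPM per kb of unshared exon on a log axis, in genome order within the alpha, beta and gamma clusters. Points are means over 20 libraries, lines run from the lowest to the highest library, and the C-type members are in dark red; Pcdhac2 stands highest at 38.2, and Pcdha8, Pcdhb1 and Pcdhgb8 lie far below their neighbours.

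Alternate alpha members, apart from Pcdha8, lay between Pcdha10 at 2.59 ± 0.285 and Pcdha12 at 8.32 ± 0.847 CPM per kb. Pcdha12 is the last alternate member before the C-types and was 1.15-fold above Pcdha5, at 7.22 ± 0.629, in 19 of 20 libraries. The first, Pcdha1, had 2.67 ± 0.312. Pcdha8 had 0.148 ± 0.0378, from 8 to 19 counts per library. Of the 50-base windows in the variable exon of Pcdha8, 18.1% recur in another member's variable exon, against 19.2% for Pcdha11, which had 4.29 ± 0.504. The part of this recurrence in the count of Pcdha8 was not tested.

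All beta members apart from Pcdhb1 lay between 1.04 and 7.68 CPM per kb. Pcdhb9 was the highest with 7.68 ± 0.612 CPM per kb, followed by Pcdhb7 with 5.11 ± 0.324 and Pcdhb17 with 4.22 ± 0.286. These 3 kept that order in all 20 libraries. Pcdhb15, the second lowest, had 1.04 ± 0.160, and Pcdhb22, the last of the cluster, had 3.14 ± 0.218. Pcdhb1 had 0.178 ± 0.0505, from 10 to 25 counts per library, and none of its 50-base windows recurs in another member (0%).

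Among the gamma alternates the A subfamily lay above the B subfamily. The 12 gamma A members ran from 4.94 (Pcdhga9) to 21.8 (Pcdhga11) with a median of 7.94 CPM per kb, and held 56.4% of the gamma counts. The 7 gamma B members ran from 0.409 (Pcdhgb8) to 8.72 (Pcdhgb6) with a median of 3.71, and held 13.0%. The ranges overlap, since Pcdhgb6 was above the A median. The 50-base windows of the variable exon that recur in another member were 0% to 4.25% in gamma A members. In gamma B members they were 2.87% (Pcdhgb7) to 18.5% (Pcdhgb1), with 11.9% in Pcdhgb6. The part of this recurrence in the counts was not tested. Pcdhgb8, which RefSeq lists as a transcribed pseudogene, had 0.409 ± 0.102 from 20 to 64 counts per library, and Pcdhgb4 had 2.59 ± 0.209. Without Pcdhgb8 the gamma B median was 3.78. The end members Pcdhga1 and Pcdhga12 had 8.27 ± 0.479 and 8.34 ± 0.635.

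The gamma cluster held most of the member counts. Of all member counts, 57.0% ± 0.828 (SD over 20 libraries) belonged to gamma, 22.2% ± 0.764 to alpha and 20.7% ± 0.865 to beta. Within alpha, Pcdhac2 alone held 47.7% of the counts, and the C-types together held 50.2%. Pcdha4, Pcdha6 and Pcdha7 add 0 counts here, and Pcdha7-g has only 122 bases of its own. All alpha shares therefore leave out alternate members whose reads may not have been assignable. Within gamma, the C-types held 30.6%, of which Pcdhgc3 gave 14.9% and Pcdhgc4 12.1% of the cluster's counts. Within beta, the highest member, Pcdhb9, held 12.3%. Per kb of unshared exon, the shares were 58.5% for gamma, 25.4% for alpha and 16.2% for beta. In the authors' TPM, which divides by the whole gene with its shared exons, they were 54.1%, 18.6% and 27.3%, so beta and alpha change places.

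Each cluster had nearly the same summed level in the 4 groups. Their summed levels, in CPM, are given by library in the order of the replicate numbers. The alpha cluster had 215, 211, 223, 204 and 205 in control (211 ± 7.77, SD, n = 5) and 202, 221, 192, 181 and 216 after glutamate (203 ± 16.8). With zinc it had 180.5, 184, 189, 238 and 203 (199 ± 23.6), and with TPA 181, 220.2, 208, 219 and 207 (207 ± 15.7). Every group overlapped every other, and the widest spread, with zinc, came from replicate 4 at 238.

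The beta cluster had 191, 188, 198, 195 and 191 CPM in control (193 ± 4.24) and 194, 189.7, 185, 164 and 199 after glutamate (186 ± 13.3). With zinc it had 179, 177, 181, 186 and 215 (188 ± 15.3), and with TPA 182, 202, 194, 197 and 209 (197 ± 9.85). Here the low library was glutamate replicate 4, and the high one was zinc replicate 5. The gamma cluster had 530.1, 525, 559, 519 and 519 in control (531 ± 16.7) and 508, 532, 519, 485 and 527 after glutamate (514 ± 18.8). With zinc it had 482, 493, 499, 597 and 535 (521 ± 46.6), and with TPA 516, 545, 529, 541 and 533 (533 ± 11.5). Zinc replicate 4 was again the high library, and glutamate replicate 4 was the lowest of its group in all 3 clusters.

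**Figure D2:**
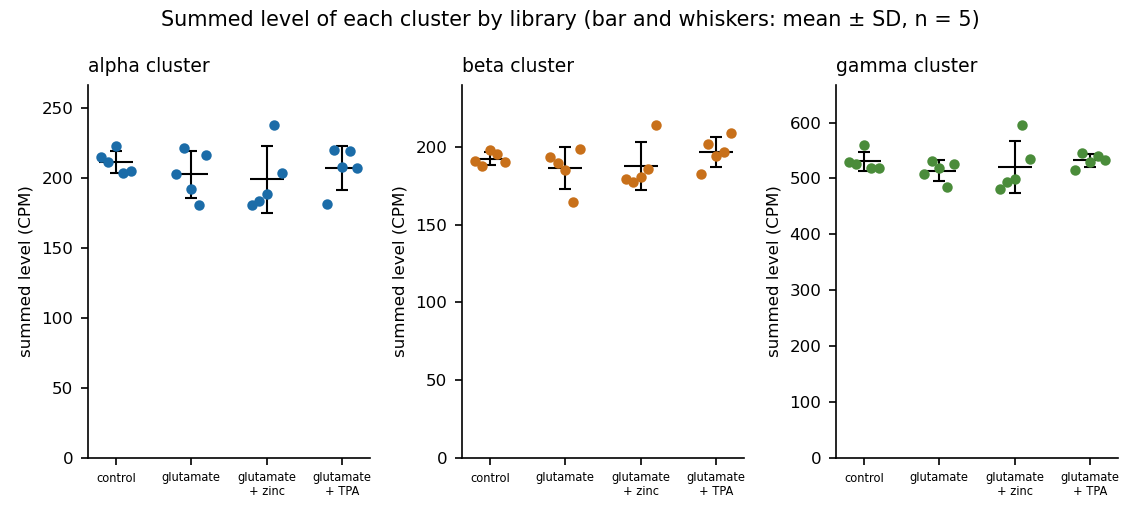
Summed level of the alpha, beta and gamma clusters in CPM (linear axis from 0) in each of the 20 libraries, with the mean and SD of each group of 5. The groups overlap in every cluster; in alpha and gamma the zinc group's replicate 4 stands highest, at 238 and 597 CPM.

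The first comparison, glutamate against control, asks which transcripts respond to the stimulus. None of the 56 tested members passed the threshold of 0.05 on the adjusted p of edgeR's quasi-likelihood test, where 0.0208% of all 14411 genes did. At an unadjusted p under 0.05 no member was higher (3.1% of all genes) and 1 was lower (1.87% of all genes). No member had groups that did not overlap (0.985% of all genes). Fold changes were small and mostly below 0, as they also were in the lists of related genes given further on. The median log2 fold change was -0.06 over the members, with 46 of 56 negative, against -0.0020 and 51.1% negative over all genes. By cluster it was -0.10 in alpha (12 of 12 negative), -0.05 in beta (15 of 22) and -0.06 in gamma (19 of 22), while the median standard error of a member was 0.08. The log2 difference of the cluster sums was -0.07 in alpha (pooled SD 0.09), -0.05 in beta (0.08) and -0.05 in gamma (0.05), each smaller than or about equal to the spread between single libraries. The standard errors of these differences were 0.06, 0.05 and 0.03. Without glutamate replicate 4 the medians were -0.06, 0.03 and -0.02, with 9, 10 and 16 members negative, so the direction of the beta median turned.

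Pcdha10, an alternate alpha isoform, had the smallest p after glutamate. It had 6.90, 6.50, 7.02, 6.00 and 6.92 CPM in control and 5.22, 5.27, 6.14, 4.97 and 6.22 after glutamate. The groups overlap through control replicate 4 and glutamate replicates 3 and 5. Its log2 fold change was -0.26 (SE 0.08, unadjusted p = 0.00419, edgeR adjusted p = 0.857). The next members were Pcdhb7 with -0.10 (SE 0.06), Pcdhgc5 with -0.13 (SE 0.08) and Pcdhga10 with -0.09 (SE 0.06), each at an edgeR adjusted p of 0.95. Pcdhb7 had -0.06 without control replicate 4, and Pcdhga10 had -0.06 without control replicate 3. The other C-types had -0.02 (SE 0.07) for Pcdhac2, -0.11 (SE 0.12) for Pcdhac1, -0.04 (SE 0.06) for Pcdhgc3 and -0.03 (SE 0.06) for Pcdhgc4.

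The second comparison asks how added zinc alters the response. With zinc against glutamate alone, no member passed the edgeR threshold, nor did any gene (0%). At an unadjusted p under 0.05, 0 members were higher and 1 was lower, against 2.69% and 3.3% of all genes, and no member had separate groups (0.701% of all genes). The member medians lay near 0, at -0.02 in alpha, -0.02 in beta and 0.04 in gamma (all genes 0.00065), with 5 of 12, 10 of 22 and 15 of 22 positive. The cluster sums differed by -0.03 (pooled SD 0.14), 0.01 (0.11) and 0.02 (0.10) on the log2 scale. Without zinc replicate 4 the gamma median was -0.03, with 14 of 22 negative, and without glutamate replicate 2 the alpha and beta medians were 0.02 and 0.01. The alpha median was also above 0 without zinc replicate 1, and the beta median without zinc replicate 1 or 3 or glutamate replicate 1.

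The member with the smallest p under zinc was the pseudogene Pcdhgb8, with a log2 fold change of -0.40 (SE 0.17, unadjusted p = 0.0321, edgeR adjusted p = 0.771). It was followed by Pcdhb12 with 0.15 (SE 0.08), Pcdhb22 with -0.11 (SE 0.07) and Pcdhga1 with 0.09 (SE 0.05), all at adjusted p of 0.86 or more in edgeR. Pcdhb12 had 0.07 without zinc replicate 5, Pcdhb22 had -0.07 without zinc replicate 2, and Pcdhga1 had 0.05 without zinc replicate 4. The 5 C-types had log2 fold changes between -0.04 and 0.02. Pcdhac2 had 83.7, 89.3, 90.8, 117 and 99.3 CPM with zinc and 96.3, 104, 92.8, 87.1 and 107 without it. The 2 ranges overlap fully, as glutamate alone lies within the zinc group's range.

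The third comparison, TPA with glutamate against glutamate, asks what removal of zinc does. No member passed the edgeR threshold, nor did any gene (0%). At an unadjusted p under 0.05, 5 members (8.93%) were higher, where 3.14% of all genes were, and 1 (1.79%) was lower, where 4% of all genes were. No member had separate groups (1.03% of all genes). The 5 were 1 alpha, 3 beta and 1 gamma member, namely Pcdha10, Pcdhb7, Pcdhb12, Pcdhb20 and Pcdhga4. Without glutamate replicate 4, the members at an unadjusted p under 0.05 in either direction went from 6 to 2. The median log2 fold change was 0.02 in alpha, 0.06 in beta and 0.06 in gamma, with 8 of 12, 19 of 22 and 19 of 22 positive (all genes 0.0025). The cluster sums differed by 0.03 (pooled SD 0.12), 0.08 (0.09) and 0.05 (0.04). This comparison shares the glutamate libraries with the preceding ones. Without glutamate replicate 4 the medians were -0.03, 0.03 and 0.03, and 21 of 56 members were negative instead of 10. The alpha median was also below 0, at -0.0081, without TPA replicate 2.

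Pcdhgb8 again had the smallest p. It had 0.956, 0.878, 0.696, 0.682 and 0.787 CPM with TPA and 1.24, 1.01, 1.35, 0.825 and 1.57 after glutamate alone. Glutamate replicate 4 lies within the TPA range, and the other 4 lie above it. Its log2 fold change was -0.58 (SE 0.18, unadjusted p = 0.00383, edgeR adjusted p = 0.613), from 20 to 64 counts per library over the whole series. Pcdha10 had 5.53, 6.81, 6.78, 6.92 and 6.78 CPM with TPA, where replicate 1 lies inside the glutamate range and the other 4 lie above it. Its log2 fold change was 0.24 (SE 0.08, edgeR adjusted p = 0.656), against glutamate libraries that were also used for its value of -0.26 above. Pcdhb20 followed with 0.16 (SE 0.07, edgeR adjusted p = 0.677) and Pcdhb7 with 0.13 (SE 0.06, edgeR adjusted p = 0.684).

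The fourth comparison sets TPA against zinc, both with glutamate. No member passed the edgeR threshold, where 0.513% of all genes did. At an unadjusted p under 0.05, 3 members (5.36%) were higher and 0 were lower, against 8.36% and 7.68% of all genes, and none had separate groups (3.13% of all genes). The number at an unadjusted p under 0.05 depended on the library left out. It was 8 without zinc replicate 4, 6 without zinc replicate 5 and 5 without TPA replicate 1. It was 1 without zinc replicate 1 or 3 or TPA replicate 2 or 5, and 2 with any other library left out. The count over all genes moved as well. The fits with 8, 6 and 5 members called 899 of 14492, 230 of 14497 and 127 of 14463 genes at the adjusted threshold, instead of 74 of 14411. The share of all genes at an unadjusted p under 0.05 is not given for these fits. The median log2 fold change was 0.05 in alpha, 0.08 in beta and 0.02 in gamma, with 8 of 12, 19 of 22 and 13 of 22 positive (all genes -0.0011). With a library left out in turn, the medians ran from 0.02 to 0.12 in alpha and from 0.06 to 0.13 in beta. The gamma median ran from -0.02, with 13 of 22 negative, without zinc replicate 1 to 0.07 without zinc replicate 4, and it was also below 0 without zinc replicate 2. The cluster sums differed by 0.06 (pooled SD 0.14), 0.07 (0.09) and 0.04 (0.09).

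Pcdhga4, a gamma A isoform, came closest to the threshold. It had 20.6, 19.8, 19.3, 18.6 and 20.5 CPM with TPA and 15.5, 15.7, 16.1, 19.8 and 18.5 with zinc. Zinc replicate 4 lies within the TPA range, replicate 5 lies just under it, and the other 3 lie well below. Its log2 fold change was 0.21 (SE 0.07, unadjusted p = 0.00528, edgeR adjusted p = 0.126). Without zinc replicate 4 it passed, with a log2 fold change of 0.27 (edgeR adjusted p = 0.0187), in a fit that called 899 genes instead of 74. Pcdhb3 had 0.16 (SE 0.07, edgeR adjusted p = 0.283), Pcdha9 had 0.18 (SE 0.09, edgeR adjusted p = 0.311) and Pcdhb20 had 0.14 (SE 0.07, edgeR adjusted p = 0.316). Pcdhb20 had 12.9, 14.5, 13.5, 13.5 and 13.9 CPM with TPA and 12.5, 11.7, 11.5, 11.6 and 14.7 with zinc, where replicate 5 of the zinc group lies above the TPA range and the other 4 lie below it.

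**Figure D3:**
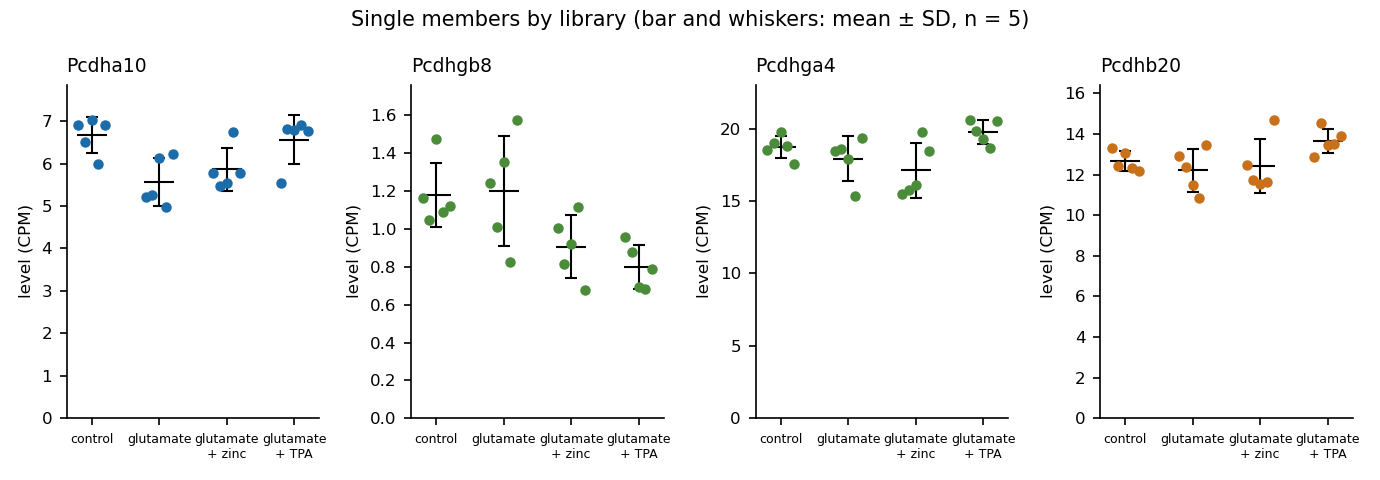
Level in CPM (linear axes from 0) of Pcdha10, Pcdhgb8, Pcdhga4 and Pcdhb20 in each of the 20 libraries, with the mean and SD of each group of 5. For each gene the groups compared overlap in at least 1 library, such as zinc replicate 4 for Pcdhga4 at 19.8 CPM.

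A test of any difference among the 4 groups called no member in edgeR, where 0.167% of all genes passed. At an unadjusted p under 0.05, 3 members (5.36%) stood out, where 10.4% of all genes did, and these were Pcdhgb8, Pcdha10 and Pcdhga4. By the authors' deposited analysis, 0 members had an adjusted p under 0.05 in any of the 4 comparisons. The authors' deposited tables have 11, 1 and 1 of 20200 genes under it in the first 3 comparisons and 456 of 12069 in the fourth. The smallest adjusted p of a member in the authors' deposited table was 0.0641, for Pcdhga4 in TPA against zinc. DESeq2 called 14, 2, 1 and 481 of 14410 genes in the 4 comparisons, and limma-voom 4, 0, 0 and 63 of 14411, with 0 members among them.

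**Figure D4:**
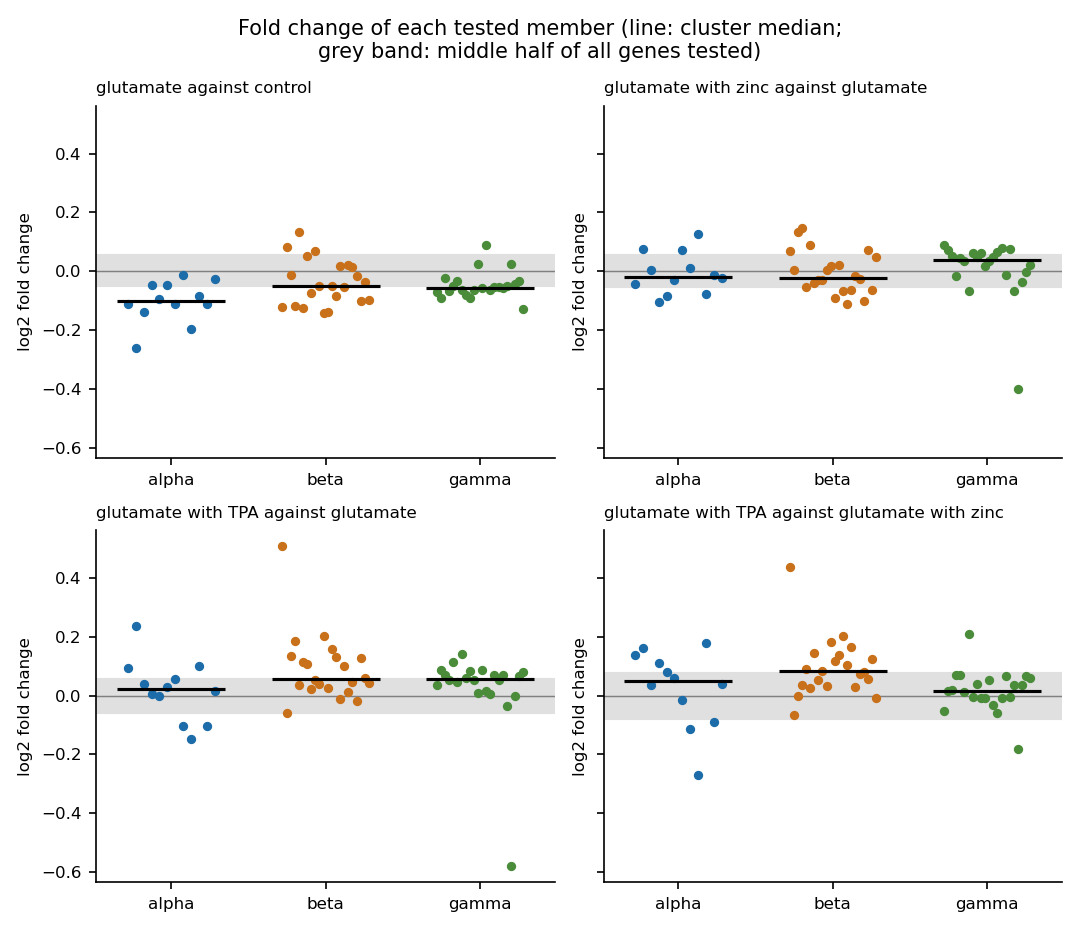
Log2 fold change of each of the 56 tested members in the 4 comparisons, by cluster, with the cluster median as a black line and the interquartile range of all 14411 genes tested as a grey band. Alpha members all lie below 0 after glutamate (median -0.10), and Pcdhgb8 is the lowest point in both comparisons against glutamate alone, at -0.40 with zinc and -0.58 with TPA.

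Alternate and C-type isoforms were also compared by their sums. The alpha alternates summed to 107 ± 3.84 CPM in control and 99.9 ± 8.64 after glutamate (log2 difference -0.10, pooled SD 0.10), and the alpha C-types to 105 ± 4.45 and 103 ± 8.44 (-0.03, pooled SD 0.09). The gamma alternates summed to 367 ± 13.6 and 356 ± 19.8 (-0.05, pooled SD 0.07), and the gamma C-types to 164 ± 5.37 and 158 ± 3.28 (-0.05, pooled SD 0.04). The difference exceeded the pooled SD of single libraries for gamma C-types and about equalled it for alpha alternates. For alpha C-types and gamma alternates it was smaller. The SD of single libraries is wider than the standard error of a difference of group means, which is not given for these sums. With TPA the 4 sums in the same order were 104 ± 9.41, 103 ± 6.89, 370.3 ± 6.94 and 162 ± 5.63.

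Members varied together from library to library. After group means were removed, the median Pearson correlation over the 20 libraries was 0.56 among 10 alpha members, 0.52 among 22 gamma members and 0.35 among 21 beta members. Between clusters it was 0.48 for alpha with gamma, 0.27 for alpha with beta and 0.28 for beta with gamma. Over all pairs of 12519 genes at a mean of at least 1 CPM it was -0.0030, with quartiles of -0.26 and 0.26. These values are descriptions across genes that share the same libraries. When the 3 libraries with the largest distance to their group means over all genes were left out (glutamate replicates 4 and 5 and zinc replicate 5), the within-cluster medians were 0.59, 0.56 and 0.16, so the beta value rested largely on those libraries.

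Not all members followed this pattern, and Pcdhgc3 departed from it most. It was the only member among 53 with a negative median correlation to the others (-0.11), and 20 of its 21 correlations with beta members were negative (median -0.36). These values are given with all 20 libraries only. Among them, Pcdhgc3 was highest in glutamate replicate 4, where the beta sum was lowest at 164 CPM. It was lowest in zinc replicate 5, where the beta sum was highest at 215. The part of these libraries in its correlations was not tested. Pcdhgc3 had 73.8, 75.9, 77.9, 89.4 and 73.5 CPM after glutamate, so replicate 4, the lowest library of its group for the cluster sums, was the highest for Pcdhgc3. Pcdhgc4, its neighbour, had 63.3, 64.3, 64.9, 54.4 and 66.3 in the same libraries, with replicate 4 the lowest. The next lowest median correlations with the others were 0.01 for Pcdhb3 and 0.06 for Pcdhgb5, with 25 and 18 of 52 negative. At the other end Pcdhga3 had a median correlation of 0.64 with the others. In glutamate replicate 4 the neuronal markers summed to 6058 CPM, the lowest of all 20 libraries. The glutamatergic markers there summed to 962 (group range 870 to 1027) and the GABAergic markers to 1104 (910 to 1127), so neither was lowest. The astrocyte markers there summed to 786, the lowest of its group, and the oligodendrocyte lineage markers to 30.8, the highest of all 20. Their part in the level of Pcdhgc3 and of the cluster sums was not tested.

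**Figure D5:**
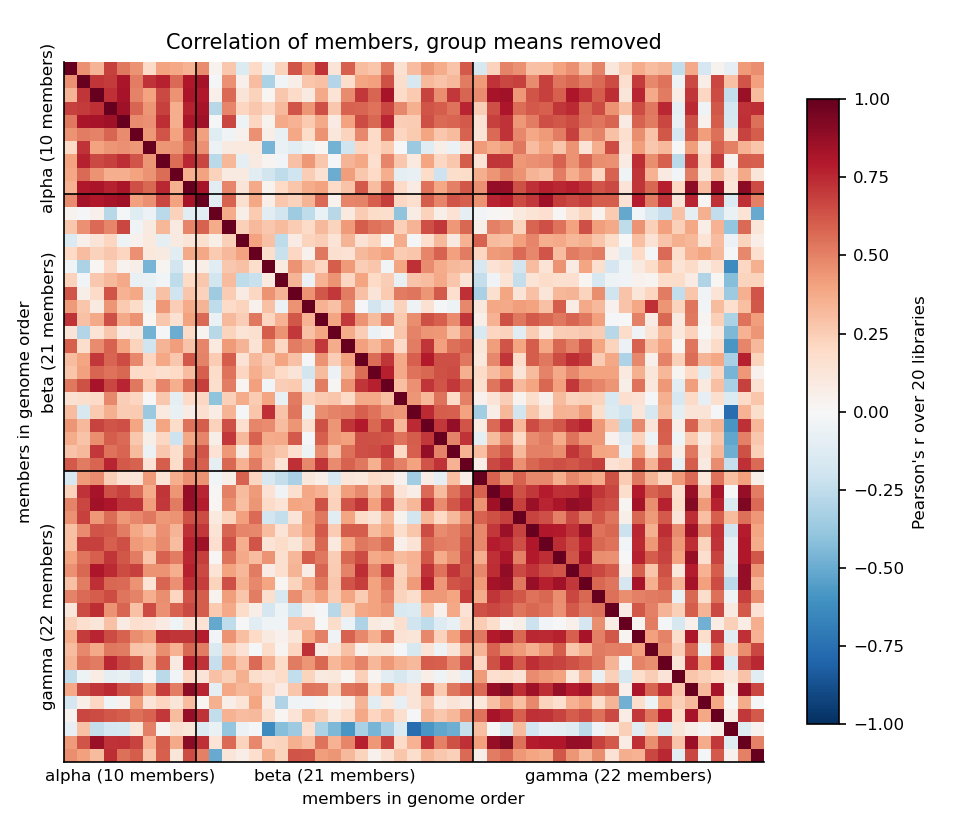
Pearson correlation over 20 libraries, with group means removed, between the 53 members at a mean of at least 1 CPM, in genome order (red positive, blue negative; lines separate the clusters). The alpha and gamma blocks are the darkest red, with medians of 0.56 and 0.52, and the row of Pcdhgc3, the third from the end of gamma, turns blue against beta.

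The clusters also differed in base composition and in how steady they were. The median GC content of the variable exons was 53.8% in alpha, 47.5% in beta and 52.5% in gamma. The highest of all members was Pcdhgc3 with 56.8%. The libraries differed in how counts depended on GC. In glutamate replicate 4, where Pcdhgc3 was highest, counts rose with GC, and the part of this in its level was not tested. The 5 libraries with the lowest beta share of member counts (18.2% to 20.3%) included 4 in which counts rose with GC, and the 5 with the highest share (21.3% to 22.5%) included 0. Among the other 10 libraries, counts rose with GC in 6. With an offset for GC content in each library, the SD of the beta share over the 20 libraries was 0.674 instead of 0.865 percentage points, against 0.738 instead of 0.764 for alpha and 0.745 instead of 0.828 for gamma. That offset used the GC of the variable exon for members and of the transcripts for other genes. The part of GC in the spread of the shares was not tested. The median biological coefficient of variation was 9.25% in alpha, 8.28% in beta and 6.62% in gamma, and 6.88% over all genes. Relative to genes of like abundance, the dispersion was 1.21-fold the trend in alpha, 0.70 in beta and 0.73 in gamma, where all genes gave 0.74.

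Genes that act on or with the protocadherins did not pass the threshold either. Of 17 tested genes of promoter choice and chromatin, 7 of the proteases that cleave the proteins, 17 of partners and 10 nonclustered protocadherins, edgeR called 0 in any of the 4 comparisons. After glutamate the median log2 fold changes of these lists, in the same order, were -0.04, -0.03, -0.02 and -0.04. Of their genes, 1 of 17, 1 of 7, 5 of 17 and 3 of 10 were positive. Ctcf, which brings isoform promoters to their enhancers, had 75.2 CPM in control and 73.6 after glutamate (log2 fold change -0.03, SE 0.04). Smchd1, a chromatin protein that silences the clusters, had 60.9 and 58.1 (-0.07, SE 0.05), and Adam10, the protease that sheds the gamma proteins, had 113 and 106 (-0.10, SE 0.05). The smallest p after glutamate belonged to Ptk2b, a focal adhesion kinase that the proteins bind and inhibit (-0.13, SE 0.07, edgeR adjusted p = 0.95), and to Pcdh7 (-0.13, SE 0.07). With zinc they were Zfp143, a promoter-binding zinc-finger protein (0.19, SE 0.07, edgeR adjusted p = 0.741), and the DNA methyltransferase Dnmt3a (-0.13, SE 0.06). With TPA against glutamate they were Pcdh8 (0.09, SE 0.03, edgeR adjusted p = 0.656) and Pcdh20 (-0.08, SE 0.04), and against zinc Pcdh8 (0.09, SE 0.03, edgeR adjusted p = 0.14) and the cohesin regulator Pds5a (0.13, SE 0.04). At an unadjusted p under 0.05 the lists together held 0, 2, 2 and 8 of 51 genes in the 4 comparisons. In the first 3 comparisons 3.1%, 2.69% and 3.14% of all genes were higher at that p, and 1.87%, 3.3% and 4% were lower. In TPA against zinc 8.36% of all genes were higher and 7.68% lower at that p, so the 8 are near the share of all genes.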

How the data were processed

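Messenger RNA of 20 cultures was sequenced as stranded libraries, per the labels' protocols. Per the submitters' processing notes, build mm10 and HISAT2 2.1.0 were used, with Trimmomatic 0.36 and SAMtools 1.3.1, and featureCounts and DESeq2 1.14.1 (R 3.3.0) are also listed. No source used here gives the counting rule for strand or for reads on exons of several genes. The authors deposited whole-number counts per gene, which entered every test. The authors' deposited TPM divides these counts by gene length, and was used for shares and order only. The authors' deposited tables give a p-value and its adjustment for each comparison. Exon bounds came from the deposited annotation, and RefSeq gave the pseudogene status.

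The edgeR filter kept 14411 of 24419 genes, with 99.98% of all counts, and 56 of 59 members. Counts were scaled by TMM, and CPM are counts relative to the scaled library size. A single edgeR 4.0.16 quasi-likelihood model (R 4.3.3, robust) of 4 group means over 20 libraries gave the 4 contrasts and a joint test of them, with Benjamini-Hochberg adjustment over all genes and a threshold of 0.05. The script was tested on simulated counts. Cluster sums, levels, shares and correlations are descriptions with no test. Correlations used log2 CPM with a prior count of 2.

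Other settings were DESeq2 size factors, library size alone, no low-count filter, a mean of at least 1 CPM, a fit of the 2 groups by themselves, a replicate block, DESeq2 1.42.0, limma 3.58.1 (voom) and each library left out in turn. Leaving out the 3 libraries farthest from their group means (root mean square of residual log2 CPM over all genes) and a within-library loess offset on GC content (span 0.5) were chosen after seeing the data. Members and lists were chosen with earlier results of these data known. Members named with values were the C-types, the 3 highest and 2 lowest of each cluster per kb of unshared exon, its first and last alternate, the 4 smallest p in each comparison and those that failed the filter. Pcdha11, Pcdhga3, Pcdhga8, Pcdhga9, Pcdhgb5, Pcdhgb6 and Pcdhb19 were named after their values were seen. Of the pathway lists, Ctcf, Smchd1, Adam10 and the 2 smallest p in each comparison were named.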

Additional observations from a re-analysis of the deposited data

Results flagged for a closer look

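In 120 sets of 5 libraries (the 3 cluster sums and 27 named members in 4 groups), a library was marked when its gap to the nearest other exceeded 0.71 of the range of its group. Chance marks about 1 in 20 sets, and 15 values were marked. The sets share the same 20 libraries and the cluster sums include the named members. They are thus not independent, and no excess over chance is read from the 15. Zinc replicate 5 had a beta cluster sum of 215 CPM, where the other 4 lay between 177 and 186. Control replicate 3 had a gamma cluster sum of 559 against 519 to 530.1, with 107 for Pcdhac2 (others 95.4 to 98.7) and 1.47 for Pcdhgb8 (others 1.05 to 1.16). Glutamate replicate 4 had 89.4 CPM of Pcdhgc3, above the others at 73.5 to 77.9, and 54.4 of Pcdhgc4, below the others at 63.3 to 66.3.

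Zinc replicate 4 had 6.82 CPM of Pcdhac1 and 6.74 of Pcdha10, in both cases the highest of its group. TPA replicate 1 had 5.53 of Pcdha10 and 10.8 of Pcdha9, in both cases the lowest of its group. The other marked values were 7.64 for Pcdha1 in control replicate 1, 22.7 for Pcdhb9 in control replicate 2, 26.1 for Pcdhb9 in glutamate replicate 5, 19.6 for Pcdhb7 in TPA replicate 5 and 8.96 for Pcdhb3 in zinc replicate 2.

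Gm38666, which is outside the 59 members and whose variable exon contains that of Pcdha6, had 5 to 31 counts per library, above the 3 counts that a count of 0 allows.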

How the results depend on the processing

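The number of members called stayed at 0 under the planned settings in every comparison, except TPA against zinc, where leaving out a library in turn gave 0 to 1 (Pcdhga4, without zinc replicate 4). With the 3 libraries farthest from their groups left out (a setting chosen after seeing the data), that comparison called 3 members, in a fit that called 1149 of 14550 genes. They were Pcdhga4 (log2 fold change 0.24, edgeR adjusted p = 0.0231), Pcdhb20 (0.20, edgeR adjusted p = 0.0258) and Pcdhb19 (0.27, edgeR adjusted p = 0.0466). The fold changes of the 4 members with the smallest p in each comparison (16 in all) kept their sign in all 320 recomputed values. These members were picked by p in the same data, so a kept sign was likely in advance and lends them no weight. Other members' fold changes were not recomputed singly. The shares of alpha, beta and gamma moved from 22.2%, 20.7% and 57.0% to 25.4%, 16.2% and 58.5% per kb of unshared exon, with Pcdha7-g included. In TPM they were 18.6%, 27.3% and 54.1%. Of the 10 highest members, 8 remained by whole gene length or TPM and 9 without a length.

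Whether the replicate numbers pair the samples cannot be told from these values. In each comparison at most 3 of 5 same-numbered pairs correlated above 0.1, and the correlations ran from -0.07 to 0.50. With the replicate block, 0 members were called, and the count over all genes for TPA against zinc went from 74 to 422. DESeq2 without a block called 481. Depth limits Pcdha8, Pcdhb1, Pcdhgb8 and Pcdha7-g, which held at most 64 counts per library, and unshared bases limit Pcdha4, Pcdha6 and Pcdha7. Sequence shared between variable exons may move counts between members, and this was not tested.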
